A study of Mus musculus with 6 samples.

Results

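The genes Hmgcs1, Idi1, Sqle, Lss and Cyp51 encode 5 enzymes of cholesterol synthesis, and Srebf2 and Insig1 encode 2 proteins that control how strongly the pathway is transcribed. These 7 genes were taken by symbol from the livers of Mettl14f/f mice, 7 of 18419 genes with any assigned fragment and 7 of 21362 genes in the deposited FPKM table. All 6 mice were males that carried floxed Mettl14 alleles and were fed a high-fat diet (HFD) from 8 weeks of age. After 10 weeks of HFD, 3 mice received AAV8-TBG-Cre and 3 received AAV8-TBG-GFP by tail vein, and liver RNA was taken 8 weeks after injection. The vectors are adeno-associated viruses in which the thyroxine-binding globulin (TBG) promoter drives expression in hepatocytes, so Cre is aimed at these cells and the other cells of the liver keep the floxed alleles. The sample labels call the GFP livers WT and the Cre livers METTL14 KO. METTL14 is a subunit of the enzyme complex that methylates adenosine in mRNA (m6A). The comparison asks how the sterol synthesis genes differed between livers given Cre and livers given GFP.

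Cholesterol is built from acetyl-CoA through mevalonate, isoprenoid units, squalene and lanosterol. The transcription factor SREBP-2, made from Srebf2, is held in the endoplasmic reticulum with its escort SCAP and the INSIG proteins while membrane sterol is high, and is cut free in the Golgi by 2 proteases when sterol is low. It then raises transcription of the synthesis enzymes, of its own gene and of Insig1, usually together with the factors NF-Y and Sp1, so these genes are known to move together in liver.

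None of the 7 genes differed between the vectors by the test used. Hmgcs1, Idi1, Sqle, Lss, Cyp51 and Srebf2 had a lower and Insig1 a higher fitted level in AAV8-TBG-Cre livers, and every 95% interval of the difference included 0. Levels differed widely between mice of the same group. AAV8-TBG-GFP replicate 1 held the highest level of all 5 enzymes among the 6 livers. Of the genes that control SREBP processing, Rnf145 alone rose, to 28.9 ± 1.23 CPM in AAV8-TBG-Cre livers from 15.7 ± 1.68 CPM in AAV8-TBG-GFP livers (SD, n = 3 each; adjusted p = 0.0330, edgeR).

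The start-site sequence shared by the members is shown because SREBP-2 and NF-Y are the factors through which these genes are known to be controlled together. RefSeq promoter windows on GRCm38.p6, running from 250 bases before to 50 bases after the annotated start, were found for 6 of the 7 genes and not for Sqle. Both strands were searched for CCAAT, the box that NF-Y recognises, for GGGCGG, a GC box of the Sp1 family, and for CACNCCAC, a core of the sterol regulatory element. A gene was counted where any of its windows held the motif. CCAAT occurred in 6 of 6 members, in 11 of 12 other synthesis enzymes with a window and in 41.1% of all 27025 gene symbols (37.4% of all 32851 windows). GGGCGG occurred in 6 of 6, in 11 of 12 and in 38.2% of all symbols (35.7% of windows). CACNCCAC occurred in 2 of 6, in 1 of 12 and in 7.12% of all symbols (6.24% of windows). The stretches below are written 5′ to 3′ along the gene's own strand with 10 bases on each side, and capitals mark a CCAAT box, which reads ATTGG where it lies on the opposite strand. The Hmgcs1 window held 4 matches and the Idi1 window 2, of which the nearest before the start is printed, and the other windows held 1 each. Distances run to the start used for the window, which for Lss lies 40 bases inside the outermost start of the gene and for the other genes is that start.
Hmgcs1, chr13:119690296-119690320, plus strand, 45 bases before the start: cccgcctctcATTGGctgaaagcgg
Idi1, chr13:8885582-8885606, plus strand, 14 bases before the start: ccaaggtgccATTGGctggcgaccg
Lss, chr10:76531533-76531557, plus strand, 62 bases before the start: tgatgctctgATTGGccgagctcgc
Cyp51, chr5:4104712-4104736, minus strand, 29 bases before the start: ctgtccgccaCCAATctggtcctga
Srebf2, chr15:82147124-82147148, plus strand, 135 bases before the start: tcgcgcgccgATTGGctaatgcaag
Insig1, chr5:28071186-28071210, plus strand, 216 bases before the start: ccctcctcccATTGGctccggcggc

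Hmgcs1 and Insig1 were the members that also held the sterol element core, in capitals here. The match in Hmgcs1 began 136 bases before the start and read on the gene's own strand. The match in Insig1 began 9 bases before the start and read on the opposite strand. These are matches of letters in a window, which describe the sequence and were not tested as bound sites.
Hmgcs1, chr13:119690205-119690232, plus strand: gtcaccgtctCACCCCACttcccaggtc
Insig1, chr5:28071393-28071420, plus strand: gtgtagtgtcGTGGCGTGtaccttccat

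Levels below are CPM, a gene's fragments scaled to a fixed library size with TMM normalization factors, which allow a gene to be compared between livers, and mice are given in the order of replicates 1, 2 and 3. A gene was called at the study's threshold, an unadjusted p-value under 0.05 with a fold change of at least 1.2. The study names DESeq2 for its comparison, while the threshold is applied here to edgeR unless stated. In edgeR 20.5% of the 13431 tested genes passed it, 12.0% higher and 8.41% lower in Cre livers. Genes were called separately at an adjusted p-value under 0.05, which 0.931% passed. Library totals lay between 20356440 and 21010508. Mettl14, the targeted gene, was at 6.30, 6.43 and 5.81 CPM in AAV8-TBG-GFP and at 4.96, 5.38 and 4.86 CPM in AAV8-TBG-Cre livers (log2 fold change -0.29, SE 0.15, adjusted p = 0.337, edgeR). Its groups did not overlap, with the Cre livers lower, as in 13.0% of all tested genes. The paper reports less METTL14 protein on immunoblots and less total m6A in male livers given AAV8-TBG-Cre, at an earlier time after the vector. Livers hold several cell types, and fewer cells of a type cannot be told apart from less RNA per cell. In the AAV8-TBG-Cre livers 9 of 9 tested cholangiocyte markers, 7 of 10 macrophage markers, 4 of 9 stellate cell markers, 3 of 4 neutrophil markers and 1 of 2 T and NK cell markers were called higher. Of the endothelial markers 0 of 8 were called higher and 1 lower, and 1 of 4 neutrophil markers was lower. The cholangiocyte markers summed to between 51.7 and 106 CPM in GFP and between 279 and 558 CPM in Cre livers, the macrophage markers to 218 to 254 and 339 to 537 CPM, and the stellate cell markers to 227 to 340 and 414 to 857 CPM. Of 11 tested hepatocyte markers 2 were called higher and 1 lower. Markers were matched only among genes with a count in some library, so a marker at 0 in every library would have been left out. Of 12 hepatocyte markers listed 11 were matched, and of 8 T and NK cell markers 7. The part of other cell types in the values below was not tested.

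Hmgcs1 encodes the cytosolic HMG-CoA synthase, which makes HMG-CoA for the mevalonate pathway. It lies at chr13:119690351-119708260. It was at 344.8, 152.9 and 285.9 CPM in AAV8-TBG-GFP livers and at 156.0, 227.0 and 211.1 CPM in AAV8-TBG-Cre livers. The GFP livers spanned the whole range, with the highest and the lowest value of the 6 in replicates 1 and 2 of the same group. The means were 261.2 ± 98.3 and 198.0 ± 37.3 CPM (SD, n = 3 each). The log2 fold change was -0.40 (SE 0.29, 95% interval -1.08 to 0.28, adjusted p = 0.487, edgeR). Without AAV8-TBG-GFP replicate 2, the low library of its group, it was -0.67 with an unadjusted p of 0.0150 and an adjusted p of 0.245, and without replicate 1 it was -0.15. The files list 2 Hmgcs1 transcripts, NM_001291439 and NM_145942, of 3518 and 3577 bases. The second took 29.3, 22.1 and 30.8% of the gene's expected count in GFP livers and 24.1, 18.9 and 21.3% in Cre livers, groups that overlapped (exact two-sided permutation p = 0.2, where 3 against 3 cannot go below 0.1).

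Idi1 encodes the isopentenyl diphosphate isomerase, which balances the pair of isoprenoid units from which longer chains are built. It lies at chr13:8885606-8892396. Its levels were 239.7, 121.5 and 108.0 CPM in AAV8-TBG-GFP livers and 140.1, 111.4 and 96.8 CPM in AAV8-TBG-Cre livers. AAV8-TBG-GFP replicate 1 stood apart at 2.07 times the mean of the other 5 livers, among which the groups overlapped. Idi1 had a log2 fold change of -0.43 (SE 0.31, 95% interval -1.14 to 0.28, adjusted p = 0.473, edgeR), the most negative of the 7. It was 0.0085 without AAV8-TBG-GFP replicate 1.

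Sqle encodes squalene epoxidase, a rate-limiting step after mevalonate that makes the precursor of the sterol rings. It lies at chr15:59315092-59331193. Its levels were 81.7, 49.3 and 59.5 CPM in AAV8-TBG-GFP livers and 35.8, 55.0 and 61.7 CPM in AAV8-TBG-Cre livers. The highest liver was AAV8-TBG-GFP replicate 1 and the lowest AAV8-TBG-Cre replicate 1, while the other 4 lay together. Sqle had a log2 fold change of -0.32 (SE 0.24, 95% interval -0.89 to 0.25, adjusted p = 0.504, edgeR), and it was -0.10 without AAV8-TBG-GFP replicate 1.

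Lss encodes lanosterol synthase, which closes the sterol rings. It lies at chr10:76531565-76557139. Its levels were 65.5, 33.1 and 29.5 CPM in AAV8-TBG-GFP livers and 36.7, 35.1 and 44.1 CPM in AAV8-TBG-Cre livers. The GFP group held both the highest liver and the 2 lowest ones, so that the 3 Cre livers fell between them. For Lss the fitted log2 fold change was -0.14 (SE 0.29, 95% interval -0.82 to 0.53, adjusted p = 0.815, edgeR). Without AAV8-TBG-GFP replicate 1 the sign turned to 0.30, and it was also positive, 0.086, in limma on log2(FPKM + 1), where the median of all tested genes was 0.11.

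Cyp51 encodes lanosterol 14α-demethylase, the cytochrome P450 that removes a methyl group from lanosterol. It lies at chr5:4080674-4104697. Its levels were 161.8, 106.9 and 105.5 CPM in AAV8-TBG-GFP livers and 90.5, 92.9 and 101.0 CPM in AAV8-TBG-Cre livers. Cyp51 was the 1 member of 7 whose groups did not overlap, a separation with the Cre livers lower that 13.0% of all tested genes showed (27.0% in either direction). The means were 124.7 ± 32.1 and 94.8 ± 5.51 CPM (SD, n = 3 each; exact two-sided permutation p = 0.1, the smallest possible). The log2 fold change was -0.40 (SE 0.18, 95% interval -0.81 to 0.021, unadjusted p = 0.0599, adjusted p = 0.261, edgeR). It was -0.17 without AAV8-TBG-GFP replicate 1. Cyp51 was called lower without AAV8-TBG-GFP replicate 2 (unadjusted p = 0.0425, adjusted p = 0.318) or replicate 3 (unadjusted p = 0.0293, adjusted p = 0.225, both edgeR), as were 5.94% and 7.88% of all genes tested there. It was also called lower in DESeq2 (unadjusted p = 0.0462, adjusted p = 0.246) and with no filter on low counts (unadjusted p = 0.0444, adjusted p = 0.267, edgeR), as were 6.55% and 7.04% of the genes.

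Srebf2 encodes SREBP-2 itself. It lies at chr15:82147269-82205379. Its levels were 87.7, 70.7 and 96.6 CPM in AAV8-TBG-GFP livers and 69.9, 77.1 and 74.7 CPM in AAV8-TBG-Cre livers. They varied least of the 7, with the highest liver 1.38 times the lowest, and AAV8-TBG-GFP replicate 3 rather than replicate 1 was the highest. Between the vectors Srebf2 differed by a log2 fold change of -0.20 (SE 0.13, 95% interval -0.51 to 0.11, adjusted p = 0.435, edgeR). Without AAV8-TBG-GFP replicate 2 it was -0.32 with an unadjusted p of 0.0392 and an adjusted p of 0.310. Srebf1, which encodes the fatty acid regulator SREBP-1, varied more, from 91.3 to 367.2 CPM. The ratio of Srebf2 to Srebf1 in FPKM was 0.239, 0.243 and 0.670 in GFP livers and 0.181, 0.803 and 0.744 in Cre livers (exact two-sided permutation p = 0.4).

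Insig1 encodes the endoplasmic reticulum protein that retains the SCAP and SREBP complex and is itself induced by SREBP. It lies at chr5:28071412-28078662. Its levels were 234.6, 156.7 and 148.5 CPM in AAV8-TBG-GFP livers and 165.6, 163.4 and 258.5 CPM in AAV8-TBG-Cre livers. Each group had a single high liver, AAV8-TBG-GFP replicate 1 and AAV8-TBG-Cre replicate 3, above a pair at similar levels. Insig1 had a log2 fold change of 0.12 (SE 0.24, 95% interval -0.45 to 0.69, adjusted p = 0.813, edgeR). It was 0.35 without AAV8-TBG-GFP replicate 1 and -0.13 without AAV8-TBG-Cre replicate 3. Insig2, its relative, was at 120.1, 119.6 and 184.8 CPM in GFP and at 66.7, 124.5 and 137.8 CPM in Cre livers. The ratio of Insig1 to Insig2 in FPKM was 1.26 ± 0.538 in GFP and 1.76 ± 0.547 in Cre livers (SD, n = 3 each; exact two-sided permutation p = 0.5).

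**Figure D1:**
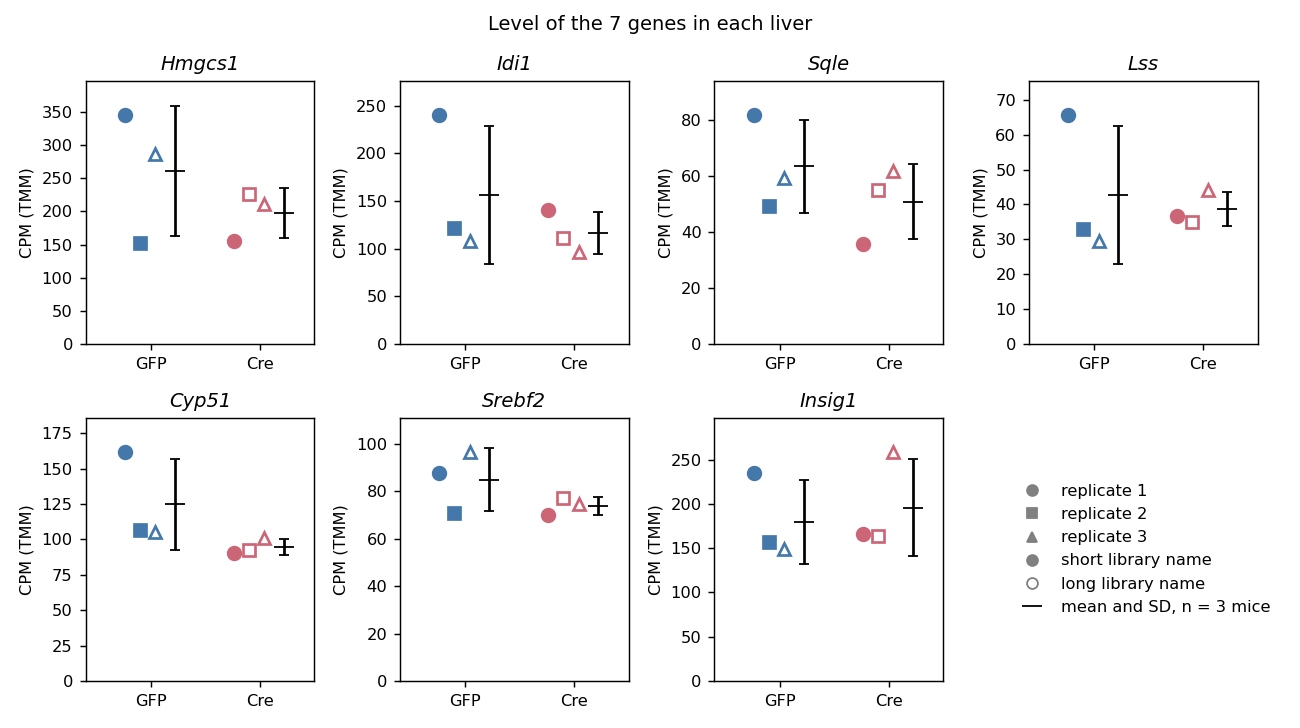
Level of each of the 7 genes in CPM in the 6 livers by vector, with the 3 replicates as separate marker shapes and open symbols for livers with a long library name; the bars give the mean and SD of 3 mice. AAV8-TBG-GFP replicate 1 is the highest liver for the 5 enzymes, and the groups are separated only for Cyp51.

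Per transcript length, Insig1 was the most abundant of the 7 at 70.1 ± 17.3 FPKM (SD over 6 livers), followed by Hmgcs1 at 64.2 ± 20.1, Idi1 at 46.8 ± 17.3, Cyp51 at 24.8 ± 5.39, Sqle at 20.6 ± 5.32, Srebf2 at 17.2 ± 2.12 and Lss at 6.33 ± 1.97 FPKM. The order of neighbours was not the same in every liver. Insig1 exceeded Hmgcs1 in 3 of 6 livers, Hmgcs1 exceeded Idi1 in 5, and Sqle exceeded Srebf2 in 5. Idi1 exceeded Cyp51, Cyp51 exceeded Sqle and Srebf2 exceeded Lss in 6 of 6. The ranges over the livers overlapped for every pair of neighbours except Srebf2 and Lss.

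As a list, 0 of the 7 members were called higher and 0 lower, against the 12.0% and 8.41% of all tested genes given above, and 0 passed an adjusted p under 0.05. At an unadjusted p under 0.05 the count was 0 in edgeR and 1, Cyp51, in DESeq2. The fold change was negative in 6 of 7, as it was in 51.0% of all tested genes. The median log2 fold change was -0.32 beside -0.0065 over all tested genes, and it was -0.10 without AAV8-TBG-GFP replicate 1 and -0.47 without AAV8-TBG-GFP replicate 2. Without replicate 2, Hmgcs1, Cyp51 and Srebf2 were called lower, beside 5.94% of all genes tested there, and none of the 7 passed the adjusted threshold there. Summed over the 7 genes, the level lay between 691.1 and 1216 CPM in GFP livers and between 694.6 and 847.8 CPM in Cre livers, so the Cre livers fell within the spread of the GFP group.

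**Figure D2:**
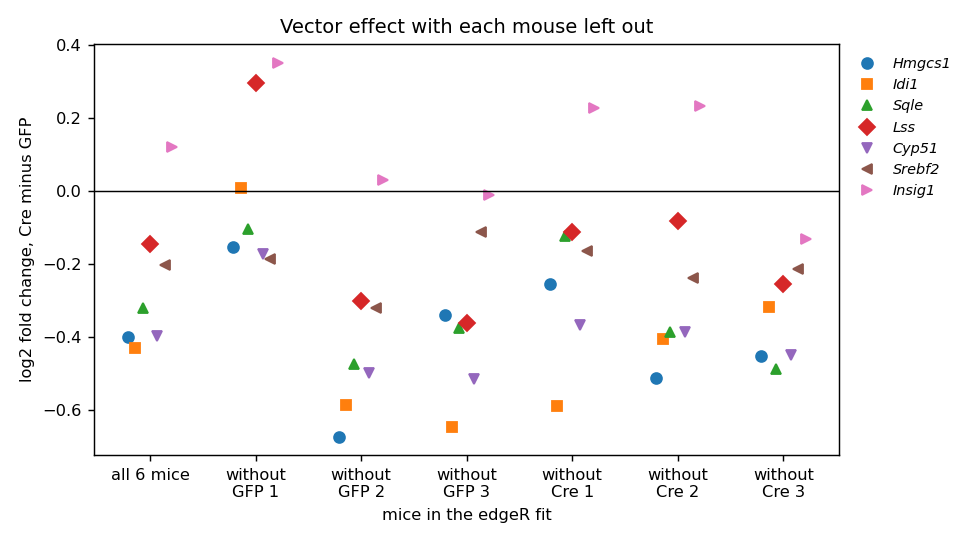
Fitted log2 fold change (AAV8-TBG-Cre minus AAV8-TBG-GFP, y axis) of each of the 7 genes with all 6 mice and with each mouse left out in turn (x axis). The median over the 7 genes moves from -0.32 with all mice to -0.10 without AAV8-TBG-GFP replicate 1 and to -0.47 without AAV8-TBG-GFP replicate 2.

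AAV8-TBG-GFP replicate 1 was high over most of the cholesterol pathway, and it was also the highest liver for most of the fatty acid synthesis genes. It was the highest liver for 5 of 7 members and for 12 of 15 other synthesis enzymes, while 12.3% of all tested genes were highest there. Counting the enzymes alone, it was highest for 17 of 20, and it was highest for 9 of 11 genes of SREBP-1 driven fatty acid synthesis. Fatty acid synthesis genes were not all high in this liver alone. Acacb was at 146.6, 101.3 and 70.1 CPM in GFP replicates 1 and 2 and Cre replicate 1, which share a short library name (described below). In the long-named livers it was at 42.9 (GFP), 18.0 and 28.1 CPM (Cre). Me1, Scd1 and Gpam did not divide in this way. AAV8-TBG-GFP replicate 1 was at least 1.3 times the mean of the other 5 livers in 6 of 7 members, in 11 of 15 other enzymes and in 7.55% of all tested genes. The factor was 1.67 for Hmgcs1, 1.56 for Sqle, 1.84 for Lss, 2.07 for Idi1, 1.63 for Cyp51, 1.31 for Insig1 and 1.13 for Srebf2. The regulator Srebf2 had the smallest factor of the 7. The total of this library was 20356440, the lowest of the 6, with a TMM factor of 0.967 within the range of 0.913 to 1.18, and their part in the result was not tested.

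**Figure D3:**
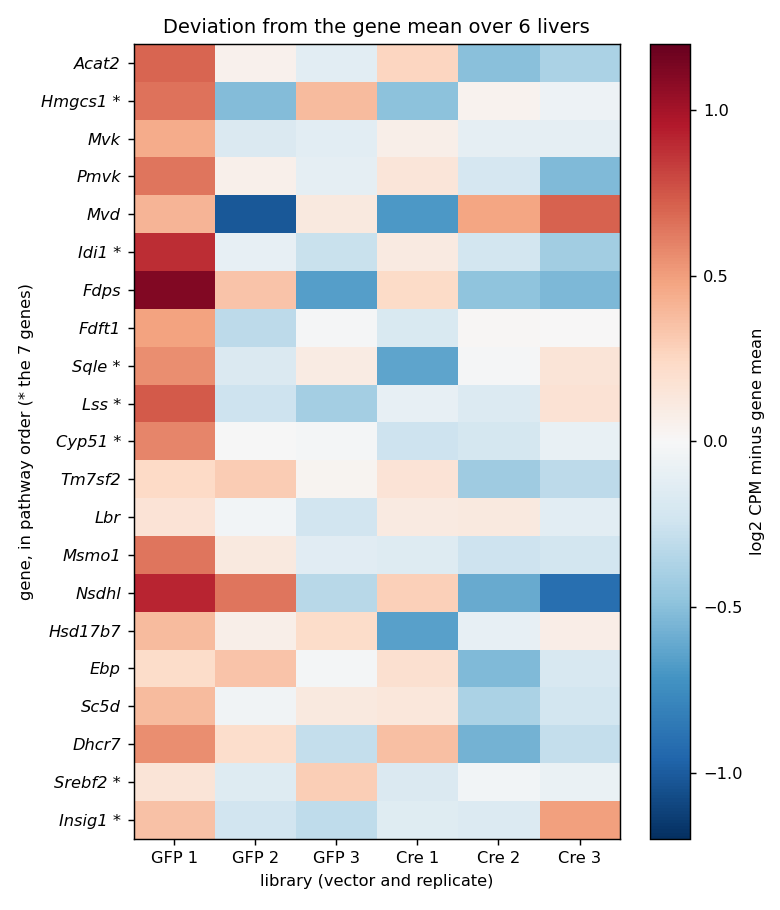
Deviation of log2 CPM from each gene's mean over the 6 livers (colour) for 19 synthesis enzymes in pathway order with Srebf2 and Insig1 below, each column being a liver and stars marking the 7 genes. The column of AAV8-TBG-GFP replicate 1 holds the highest value for 16 of the 19 enzymes drawn.

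The 7 genes varied together over the 6 livers, and this rested on that mouse. The Pearson correlation of log2 CPM over the 21 pairs had a median of 0.57, from -0.022 for Srebf2 and Insig1 to 0.88 for Hmgcs1 and Srebf2, and 20 pairs were positive. For deviations from the group means the median was 0.63, with the highest value, 0.99, for Lss and Cyp51. Without AAV8-TBG-GFP replicate 1 the median over 5 livers was -0.029, with 9 of 21 pairs positive. The pairs then ran from -0.96 for Sqle and Idi1 to 0.92 for Lss and Insig1, while Hmgcs1 and Srebf2 stayed at 0.91. These correlations describe livers that share their library and scaling for all genes, and no test was made of them.

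Among the 8 genes whose pattern over the 6 livers was most like the mean standardised level of the 7 were Ssr1 (r = 0.97), Fdft1 (0.96), Ssr3 (0.94), Eaf2 (0.93), Hn1l (0.93), Dcdc2c (0.92) and Rps19bp1 (0.92), out of 11215 genes ranked. The mean standardised level itself was 1.62 in AAV8-TBG-GFP replicate 1 and between -0.76 and 0.082 in the other 5 livers, so the likeness largely compares this mouse with the others. Fdft1, which encodes squalene synthase, was the 1 synthesis enzyme among the 8. Its levels were 134.1, 77.3 and 95.2 CPM in GFP livers and 84.5, 96.5 and 96.1 CPM in Cre livers. Mvk, the mevalonate kinase, ranked 95 (r = 0.79), and Msmo1, a methylsterol oxidase that acts later than Cyp51, ranked 104 (r = 0.79). The remaining enzymes ranked from 197 for Hsd17b7 (r = 0.72) to 4650 for Ebp (r = 0.12), with Nsdhl at 2533, Lbr at 3663 and Tm7sf2 at 4450, so a number of them did not follow the 7 closely.

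Of the 15 other enzymes of cholesterol synthesis, 13 had a negative fold change, as did 51.0% of all tested genes. The median of the 15 was -0.34. That median was -0.15 without AAV8-TBG-GFP replicate 1 and -0.48 without AAV8-TBG-Cre replicate 1, and it was -0.15 within short-named and -0.14 within long-named livers, a split of the libraries described below. Msmo1 was the 1 enzyme of 15 called lower, beside 8.41% of all tested genes, 0 were called higher, and 0 passed an adjusted p under 0.05. Msmo1 was at 219.8, 153.3 and 128.8 CPM in GFP livers and at 126.5, 118.6 and 121.1 CPM in Cre livers. Its groups did not overlap, with the Cre livers lower, as in 13.0% of all tested genes. The 3 Cre livers lay close together below the lowest GFP liver. The log2 fold change was -0.46 (SE 0.19, unadjusted p = 0.0482, adjusted p = 0.236, edgeR), and it was -0.22 with an unadjusted p of 0.178 without AAV8-TBG-GFP replicate 1. It was called without AAV8-TBG-GFP replicate 3 and not without any of the other mice. Nsdhl, which works with Msmo1 on the same methyl groups, had the most negative value, -0.81 (adjusted p = 0.278), and Mvd, the mevalonate diphosphate decarboxylase, the most positive, 0.32 (adjusted p = 0.714, both edgeR). Nsdhl was called without AAV8-TBG-GFP replicate 3 (-1.11, adjusted p = 0.186) or AAV8-TBG-Cre replicate 1 (-1.25, adjusted p = 0.0723, both edgeR). It was also called in DESeq2 (adjusted p = 0.185) and in edgeR with no filter on low counts (adjusted p = 0.257). The same held in edgeR with the replicate block (adjusted p = 0.117) and with the name form as a covariate (-0.46, adjusted p = 0.119).

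Of 8 other genes whose proteins hold, carry, cut or degrade the SREBP machinery, Rnf145 was the 1 that passed the adjusted threshold. Rnf145 encodes a ubiquitin ligase of the endoplasmic reticulum that is induced by the sterol receptor LXR and acts on SCAP. It was at 17.6, 14.6 and 14.9 CPM in AAV8-TBG-GFP livers and at 27.6, 29.0 and 30.1 CPM in AAV8-TBG-Cre livers. The spread within each group was small beside the gap between them, and every Cre liver was above every GFP liver (exact two-sided permutation p = 0.1, the smallest possible). The log2 fold change was 0.88 (SE 0.11, 95% interval 0.62 to 1.14, unadjusted p = 6.19e-05, adjusted p = 0.0330, edgeR). It was between 0.83 and 0.97 with each mouse left out, with an unadjusted p under 0.05 each time, but the adjusted p stayed under 0.05 only without AAV8-TBG-Cre replicate 1 (0.0227). It rose to 0.102, 0.137 and 0.0819 without GFP replicates 1, 2 and 3 and to 0.0766 and 0.0854 without Cre replicates 2 and 3.

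The other 7 genes of this group, among them Scap, Insig2, the proteases Mbtps1 and Mbtps2, Srebf1 and the ubiquitin ligase Rnf139, were not called in either direction. Srebf1 had the most negative value, -0.46 (adjusted p = 0.701, edgeR). It moved with single livers, being -1.45 without AAV8-TBG-Cre replicate 1 (unadjusted p = 0.00533, adjusted p = 0.0584, edgeR) and between -0.14 and -0.18 without AAV8-TBG-GFP replicate 1, AAV8-TBG-Cre replicate 2 or AAV8-TBG-Cre replicate 3, and it was -0.16 with the name form as a covariate. Of 4 sterol transport and acetoacetate genes also driven by SREBP-2, 3 passed the filter on low counts and 0 were called. Aacs, which activates acetoacetate for sterol synthesis, had -0.74 (adjusted p = 0.497), and Tmem97, a membrane protein that binds sterol, had -0.15 (adjusted p = 0.675, both edgeR). Aacs was called without AAV8-TBG-GFP replicate 3 (-1.17, adjusted p = 0.220) or AAV8-TBG-Cre replicate 1 (-1.35, adjusted p = 0.162, both edgeR), lay between -0.46 and -0.54 without each of the other mice, and was -0.10 with the name form as a covariate.

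**Figure D4:**
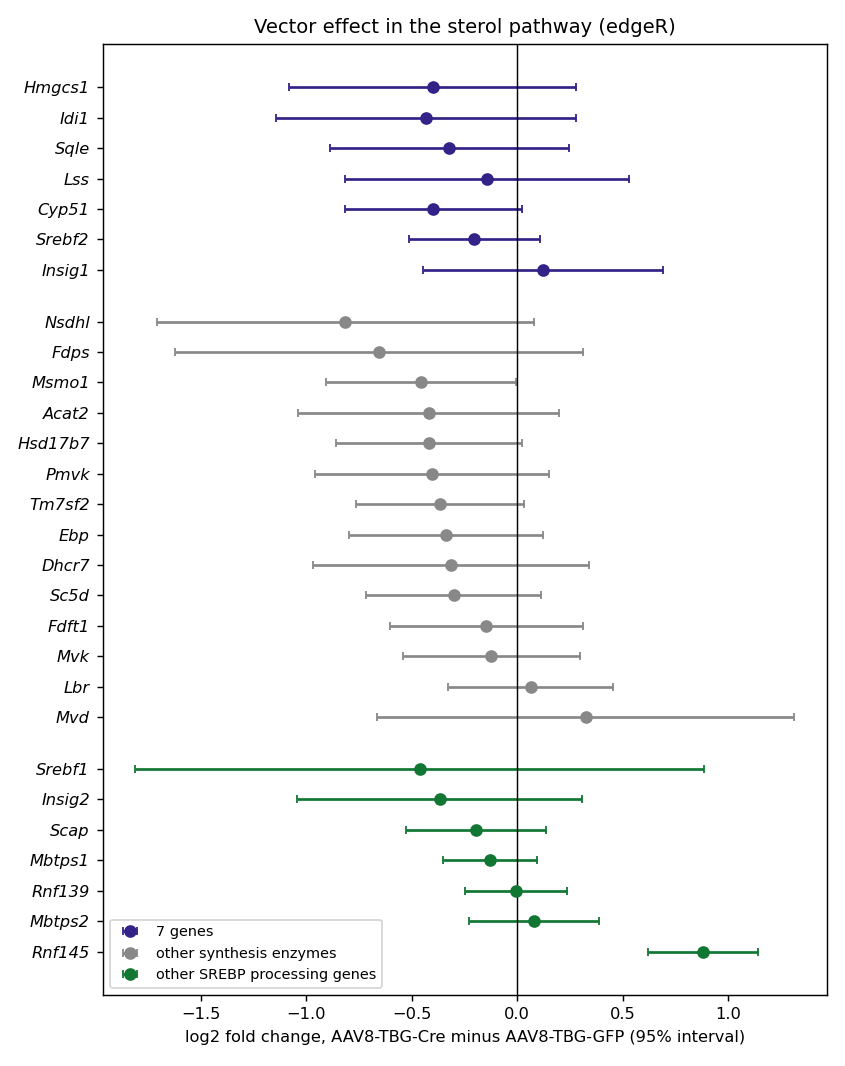
Log2 fold change of Cre over GFP livers (x axis, point) with its 95% interval from edgeR (bar) for the 7 genes, 14 other synthesis enzymes and 7 other genes of SREBP processing. The intervals of the 7 genes include 0, and Rnf145 lies at 0.88 with an interval of 0.62 to 1.14.

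The library names in the labels come in 2 forms, a short name in AAV8-TBG-Cre replicate 1 and the first 2 GFP replicates and a long name in the other 3, and neither the labels nor the methods say what the form stands for. Within the short-named livers the median log2 ratio of Cre to GFP over the 7 genes was -0.42, and within the long-named livers it was -0.054. Hmgcs1 gave -0.67 and -0.38, Sqle -0.87 and -0.028, Idi1 -0.37 and -0.054, Cyp51 -0.57 and -0.12, and Srebf2 -0.18 and -0.35. Lss gave -0.42 and 0.43 and Insig1 -0.24 and 0.51, which were of opposite sign. Each form has a single mouse in 1 of its groups, so these ratios carry no test. In a fit with the name form beside the vector, 0 of the 7 genes differed by the form (15.9% of all tested genes did), the nearest being Idi1 at -0.58 in long-named livers (unadjusted p = 0.0559, adjusted p = 0.311, edgeR). In that fit 7 of 15 other enzymes were lower in long-named livers, as were 7.79% of all tested genes. They were Acat2, Pmvk, Fdps, Nsdhl, Tm7sf2, Ebp and Dhcr7, with Nsdhl at -1.08 (adjusted p = 0.0190, edgeR). Among the regulators Srebf1 was lower at -1.58 (adjusted p = 0.0203) and Insig2 higher at 0.80 (adjusted p = 0.0353, both edgeR) in long-named livers. All 3 tested sterol transport and acetoacetate genes were lower there, Stard4 at -0.32 (adjusted p = 0.287), Tmem97 at -0.45 (adjusted p = 0.0674) and Aacs at -1.66 (adjusted p = 0.0184, all edgeR).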

How the data were processed

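Liver RNA of 6 mice was compared between the vectors that the labels give. The authors deposited expected counts per transcript, estimated fragments that need not be whole, and FPKM per transcript and gene, scaled by length and mapped fragments. The submitters' processing notes name HISAT2, Bowtie2, RSEM and mm10. The study's methods name STAR, HTSeq and, for differential expression, DESeq2, without versions. Which tools made these files is not settled here. Extraction used total RNA, and the library protocol gives oligo-dT selection or rRNA depletion without saying which. Expected counts divide fragments shared between transcripts.

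The transcripts' expected counts were added up by gene and rounded to whole numbers. edgeR 4.0.16 (R 4.3.3; quasi-likelihood, TMM, filterByExpr, vector only) kept 13431 of 18419 genes, with Benjamini-Hochberg adjustment over all of them. Libraries of a group differed beyond counting noise (chi-square per gene of at least 26.5). The steps were run on simulated counts with planted changes larger than those of the members, and with no outlying liver or name form. That run therefore does not show how well differences of the members' size are detected.

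The members and gene lists were chosen with earlier results of these data known. Named genes are every member and, of each list of sterol and lipid genes, those with an unadjusted p under 0.05, the extremes of fold change and the most abundant, the 8 most similar genes, and Mettl14. Some genes that this rule picks are not reported here by name or value and enter only the counts. Genes named beyond these were chosen after their values were seen. Alternatives were DESeq2 1.42.0, RLE or upper quartile normalization, no filter, 10 counts in every library, the replicate block, the library name form as a covariate, limma 3.58.1 on FPKM (pseudocount 1 or 0.1 before the log2, genes at 0.5 FPKM or more in 3 libraries, or unfiltered), a fold of 1.5, and each mouse left out. The name form's own effect was examined after the data were seen. The smallest exact permutation p for 3 against 3 is 0.1. Intervals are for the fitted log2 fold change, with an SE worked back from that fold change and its test statistic. The SD gives the spread between mice.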

Additional observations from a re-analysis of the deposited data

How the results depend on the processing

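Across the alternatives 0 members were called higher and 0 passed an adjusted p under 0.05. The count called lower, 0 in the analysis reported, was 1 (Cyp51) in DESeq2 and with no filter on low counts, and 0 to 3 with each mouse left out, reaching 3 without AAV8-TBG-GFP replicate 2 and 1 without AAV8-TBG-GFP replicate 3. For the other synthesis enzymes the count called lower, 1 as reported, was 2 in DESeq2, 3 with no filter, 2 with the name form as a covariate, and 0 with upper quartile normalization, with at least 10 counts in every library, with limma on log2(FPKM + 1), on log2(FPKM + 0.1) or without its filter, and with a fold of at least 1.5. It was 0 to 7 with each mouse left out, 7 without AAV8-TBG-Cre replicate 1, 3 without AAV8-TBG-GFP replicate 3 and 0 without AAV8-TBG-GFP replicates 1 or 2 or AAV8-TBG-Cre replicate 2. With the replicate number as a block it was 6 (Acat2, Pmvk, Msmo1, Nsdhl, Tm7sf2 and Sc5d), while the members called lower stayed at 0 with a median of -0.32, and Rnf145 had an adjusted p of 0.10 (edgeR). Samples with the same number did not deviate together throughout (correlations 0.0705, -0.291 and 0.236), and the labels give no pairing beyond the number. With 3 mice per group these values cannot settle whether the samples were paired. Over all tested genes the count at an adjusted p under 0.05, 125 as reported, ran from 0 without AAV8-TBG-GFP replicate 2 or AAV8-TBG-Cre replicate 2 to 1157 in DESeq2.

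On the FPKM scale the median of all tested genes moved to 0.11 with a pseudocount of 1, 0.14 with 0.1 and 0.066 without the filter. The median of the members stayed negative there, at -0.15, -0.16 and -0.15, while the sign turned for Lss, Tmem97 and Gpam. In those 3 fits Lss was at 0.086, 0.11 and 0.086, Tmem97 at 0.017 in each, and Gpam at 0.0020, 0.0021 and 0.0020. Mvd was at -0.016 with the name form as a covariate. With each mouse left out, Lss ran from -0.36 to 0.30, Idi1 from -0.65 to 0.0085, Insig1 from -0.13 to 0.35 and Scd1 from -0.88 to 0.13. The adjusted p of Rnf145 was under 0.05 in 7 of 16 alternatives, from 1.32e-06 in DESeq2 to 0.137 without AAV8-TBG-GFP replicate 2, and its fold change was positive in each. The cause of these changes was not tested. With 3 mice per group, a 95% interval such as that of Idi1, -1.14 to 0.28, leaves sizeable differences undetectable.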

Other observations

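Of 8 genes of LXR signalling and sterol efflux, 1 was called higher and 1 lower at the unadjusted threshold, which 12.0% and 8.41% of all tested genes passed. Abcg1, which exports sterol from cells and is abundant in macrophages, was at 7.52, 9.44 and 6.18 CPM in AAV8-TBG-GFP and at 11.6, 16.1 and 13.1 CPM in AAV8-TBG-Cre livers (log2 fold change 0.82, SE 0.20, adjusted p = 0.0815, edgeR). Abcg8, a subunit of the transporter that secretes sterol into bile, was at 155.2, 167.5 and 137.6 CPM and at 125.0, 57.3 and 55.8 CPM (log2 fold change -0.95, SE 0.31, adjusted p = 0.146, edgeR). Abcg8 was at -1.44 without AAV8-TBG-Cre replicate 1 (adjusted p = 0.0159, edgeR) and had an adjusted p of 0.0321 in DESeq2, but it was not called without AAV8-TBG-Cre replicate 2 (-0.77, adjusted p = 0.362) or replicate 3 (-0.75, adjusted p = 0.280, both edgeR). Both genes were without overlap, as were 14.0% of all tested genes with the Cre livers higher and 13.0% with them lower. Nr1h3, which encodes LXRα, had -0.18 (adjusted p = 0.432, edgeR). Of 9 genes of cholesterol ester and lysosomal sterol handling, 2 were called higher and 2 lower. Soat1, which esterifies cholesterol, had 1.07 (adjusted p = 0.157; not called without AAV8-TBG-GFP replicate 3 or AAV8-TBG-Cre replicate 2, at 0.88 and 0.73) and Npc2, a lysosomal sterol carrier, had 0.44 (adjusted p = 0.0975). The hydrolases Ces1d and Nceh1 had -1.02 (adjusted p = 0.159) and -0.47 (adjusted p = 0.131), and Lcat, the most abundant, had -0.21 (adjusted p = 0.450, all edgeR). Of 10 macrophage markers 7 were also called higher and 1 had a negative fold change, while Soat1 overlapped between the groups. Abcg1 and Soat1 were not compared with these markers liver by liver, and the part of macrophages in their values was not tested.

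Of 9 enzymes that lead from the same isoprenoid units to ubiquinone, dolichol and prenylated proteins, 2 were called lower, beside 8.41% of all tested genes. Coq2, of ubiquinone synthesis, was at 32.5, 34.0 and 29.8 CPM in GFP and at 27.9, 23.1 and 26.6 CPM in Cre livers (log2 fold change -0.31, adjusted p = 0.172, edgeR) and was called in 3 of 6 fits that left out a mouse, not without AAV8-TBG-GFP replicates 1 or 2 or AAV8-TBG-Cre replicate 2. Pdss2, also of ubiquinone synthesis, had -0.44 (adjusted p = 0.217) and was called in 1 of those 6 fits, without AAV8-TBG-Cre replicate 1, and its partner Pdss1 had 0.16 (adjusted p = 0.734, both edgeR). All 11 fatty acid synthesis genes driven by SREBP-1 had negative fold changes, as did 51.0% of all tested genes. Their median was -0.49, beside -0.0065 over all tested genes, and 1 of them was called lower, beside 8.41%. Within the library name forms the ratio was negative in 9 of 11 in short-named and in 8 of 11 in long-named livers, and in 7 of 11 in both. The log2 ratios in short-named and long-named livers were -0.82 and -0.90 for Acacb and -1.32 and -0.96 for Me1. They were -0.31 and -0.11 for Gpam and 0.47 and -0.90 for Scd1. The part of the name form in the median was not tested. Me1, the malic enzyme that supplies NADPH, fell from 252.4, 210.4 and 181.9 CPM in GFP to 92.8, 95.5 and 91.2 CPM in Cre livers (log2 fold change -1.21, SE 0.14, adjusted p = 0.0330, edgeR). Its adjusted p was under 0.05 in 8 of 16 alternatives. Acacb, which makes malonyl-CoA at mitochondria, had -1.33 (unadjusted p = 0.0501, adjusted p = 0.239, edgeR) and was called without AAV8-TBG-GFP replicate 3 or AAV8-TBG-Cre replicate 1, at -1.69 and -2.08. Scd1, the most abundant of them, had -0.29 (adjusted p = 0.802, edgeR) and Gpam -0.16 (adjusted p = 0.627, edgeR).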
